A study of Mus musculus with 8 samples.

Results

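A list of 9 genes of megakaryocytes and platelets was followed in whole bone marrow (BM), chosen by name: Pf4, Ppbp, Itga2b, Gp1bb, Gp9, Gp5, Gp6, Vwf and Treml1. They are 9 of the 41214 genes in the count tables, and all 9 had enough counts to be tested in every comparison. RNA-seq had been done on BM cells of 8 C57Bl6 mice, 2 in each of 4 groups. Young KD mice were 39 and 42 days old and young KO mice 48 and 44 days, and all 4 were labelled free of leukemia. Old KO mice were 158 and 101 days old, also without leukemia, and sick KD mice were 187 and 78 days old and carry the label AML, where the paper speaks of a myeloproliferative neoplasm (MPN). KD mice express GFI1, a transcriptional repressor of blood cell development, at a low level from a human GFI1 cDNA placed in the mouse locus with a floxed neo cassette, and the labels name no Cre in these groups. KO mice lack Gfi1. No wild-type library was analysed here, so every comparison is between KO and KD mice or between ages within a genotype. In the KD mice age and disease cannot be told apart. Between old KO and sick KD mice, genotype and disease cannot be told apart, and the ages differ too. The same limit holds for any contrast built on that comparison.

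Libraries held 26642067 to 42679114 counts on genes. The count on mouse Gfi1 was 13.2 to 29.9 CPM (counts-per-million after TMM scaling) in the 4 libraries labelled KO and 5.43 to 7.08 CPM in the 4 labelled KD. It was thus not lower in the KO libraries. The KD mice express a human GFI1 cDNA, so this count does not measure their GFI1 level and cannot check the labels. KO and KD are used below as the labels give them. The labels do not say whether mice were littermates or when libraries were made, and with 2 against 2 mice an exact two-sided permutation test cannot go below p = 0.333. Differences between groups were therefore tested with the quasi-likelihood test of edgeR across all genes, with Benjamini-Hochberg adjustment and 0.05 as the threshold.

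Megakaryocytes are large polyploid BM cells that mature under the cytokine thrombopoietin and shed platelets into the blood. They are rare in marrow, and their transcripts are carried on into platelets. Maturing cells switch on a shared set of genes for α-granule contents, adhesion receptors and cytoskeleton, and GATA and ETS family factors are known to act at many of these genes. In bulk RNA, fewer cells of a type and less RNA per cell cannot be told apart, and platelets held in the marrow add to the same counts.

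For 8 of the 9 genes, all but Vwf, the 250 bases before the RefSeq start were read on GRCm38.p6. Each window was searched on both strands for a GATA motif, spelled AGATAA or the same letters with T in the first place, and for an ETS motif, spelled AGGAAG or the same with C in the first place. The GATA letters stood in 2 of 8 windows, against 16.6% of 32851 windows of this length in the RefSeq table, and the ETS letters in 5 of 8, against 39.2%. Gp5 was the only 1 of the 8 with both, which 5.49% of all windows hold. The windows of 4 genes are shown, those of the neighbours Pf4 and Ppbp, the most abundant of the list per kb of exons, and those of Gp9 and Gp5, whose products join in a single receptor. Capitals mark the letters of either motif, read on either strand, and each sequence runs 5′ to 3′ on the strand of its gene.
Pf4, chr5:90772185-90772434, plus strand: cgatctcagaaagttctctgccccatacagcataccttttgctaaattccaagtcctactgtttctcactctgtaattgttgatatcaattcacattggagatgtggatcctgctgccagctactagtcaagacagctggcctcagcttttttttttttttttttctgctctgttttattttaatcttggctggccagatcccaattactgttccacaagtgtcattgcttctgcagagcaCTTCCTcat
Ppbp, chr5:90768268-90768517, plus strand: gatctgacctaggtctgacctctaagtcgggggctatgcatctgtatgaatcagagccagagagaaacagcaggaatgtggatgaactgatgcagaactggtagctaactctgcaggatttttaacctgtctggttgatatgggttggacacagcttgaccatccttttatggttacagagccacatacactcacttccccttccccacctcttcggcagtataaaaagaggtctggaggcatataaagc
Gp9, chr6:87777820-87778069, plus strand: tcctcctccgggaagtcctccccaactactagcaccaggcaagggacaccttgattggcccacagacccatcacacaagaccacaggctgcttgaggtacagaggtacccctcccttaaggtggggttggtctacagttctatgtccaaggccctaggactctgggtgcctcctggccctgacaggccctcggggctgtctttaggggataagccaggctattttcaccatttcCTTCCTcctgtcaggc
Gp5, chr16:30310782-30311031, minus strand: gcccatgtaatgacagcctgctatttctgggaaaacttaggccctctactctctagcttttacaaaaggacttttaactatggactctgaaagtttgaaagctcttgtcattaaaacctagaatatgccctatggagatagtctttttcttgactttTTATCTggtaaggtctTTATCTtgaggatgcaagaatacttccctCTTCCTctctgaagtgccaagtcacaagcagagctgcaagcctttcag
Pf4 and Gp9 each held the ETS letters within the last 20 bases before the start, Gp5 held an ETS match at position -48 and GATA matches at -93 and -77, and neither set of letters was in the Ppbp window.

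The 9 genes varied together from mouse to mouse, and the largest differences lay between mice of the same group. All 9 had their 2 highest levels in the 48-day young KO mouse and the 42-day young KD mouse, and the third highest in the 158-day old KO mouse. The lowest level was in the 44-day young KO mouse for 7 genes and in the 78-day sick KD mouse for Gp5 and Treml1. Summed over the 9 genes, the level was 361 and 77.7 CPM in the young KO mice of 48 and 44 days, 335 and 125 CPM in the young KD mice of 42 and 39 days, 263 and 164 CPM in the old KO mice of 158 and 101 days, and 195 and 97.7 CPM in the sick KD mice of 187 and 78 days. These genes made up 0.00791% to 0.0368% of the counts of a library. The lines of the plot of levels by library run almost parallel, so the order of the genes is much the same in every mouse.

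**Figure D1:**
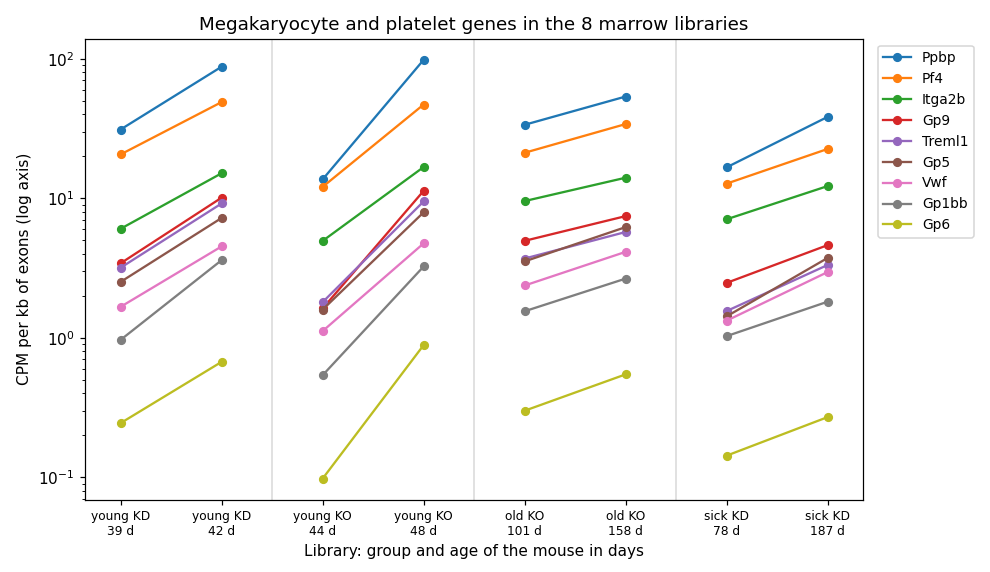
Level of each of the 9 genes (CPM per kb of exons, log axis) in the 8 libraries, with a line joining the 2 mice of a group. Ppbp was highest and Gp6 lowest in every library, and all 9 lines slope the same way within each group.

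Pf4 and Ppbp encode the chemokines CXCL4 (platelet factor 4) and CXCL7, the main chemokines of the platelet α-granule. The genes lie side by side on the plus strand of chromosome 5, Ppbp at chr5:90768518-90770063 and Pf4 at chr5:90772435-90773383 (GRCm38), with 2371 bases between them. Ppbp read 95.004 and 33.7 CPM in young KD (42 and 39 days), 106 and 14.8 CPM in young KO (48 and 44 days), 58.1 and 36.5 CPM in old KO (158 and 101 days) and 41.6 and 18.1 CPM in sick KD (187 and 78 days). The same order of mice is kept for the genes that follow. Both young groups span a wider range than the distance between any pair of group means, and the groups overlap. Pf4 read 35.3 and 14.9 CPM in young KD, 33.9 and 8.71 CPM in young KO, 24.6 and 15.3 CPM in old KO and 16.3 and 9.20 CPM in sick KD. Pf4 and Gp1bb were highest in the young KD mouse of 42 days and the other 7 genes in the young KO mouse of 48 days. Per kb of exons the pair led the list, with means of 46.7 CPM per kb for Ppbp and 27.4 CPM per kb for Pf4 over 8 mice.

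Itga2b (chr11:102453297-102470122, minus strand, 28 exon blocks) encodes integrin αIIb, or CD41, which pairs with integrin β3 as the platelet fibrinogen receptor. CD41 also appears on early progenitors and on mast cells. Its level was 82.5 and 33.0 CPM in young KD, 91.4 and 27.0 CPM in young KO, 76.7 and 52.1 CPM in old KO and 66.8 and 38.6 CPM in sick KD. It spanned 3.38-fold from the lowest to the highest library, the narrowest range of the 9 genes, and its group means lay closest together, from 52.7 ± 19.9 CPM in sick KD to 64.4 ± 17.3 CPM in old KO (SD, n = 2). Per kb its mean was 10.7 CPM per kb.

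Gp1bb, Gp9 and Gp5 encode GPIbβ, GPIX and GPV, which join GPIbα in the receptor that catches von Willebrand factor on platelets. Gp9 (chr6:87778072-87779768) read 8.90 and 3.01 CPM in young KD, 9.97 and 1.43 CPM in young KO, 6.57 and 4.37 CPM in old KO and 4.07 and 2.18 CPM in sick KD. Gp5 (chr16:30307685-30310779) read 15.9 and 5.53 CPM in young KD, 17.4 and 3.502 CPM in young KO, 13.7 and 7.76 CPM in old KO and 8.23 and 3.14 CPM in sick KD. For both genes the older mouse was the higher in every group, young ones included (48 over 44 days in young KO, 42 over 39 days in young KD), as for all 9. Gp1bb (chr16:18620317-18622403, a single exon block) read 7.52 and 2.02 CPM in young KD, 6.78 and 1.13 CPM in young KO, 5.55 and 3.24 CPM in old KO and 3.79 and 2.15 CPM in sick KD. In the GENCODE M21 annotation 91.1% of the exon bases of Gp1bb are shared with Sept5 on the same strand, and HTSeq can set reads in shared bases aside, so the Gp1bb counts (37 to 295 per library) and its level per kb are uncertain. Gp1ba, which encodes GPIbα and is not on the list, read 4.75 and 1.45 CPM in young KD, 6.02 and 1.28 CPM in young KO, 3.34 and 2.29 CPM in old KO and 4.35 and 1.23 CPM in sick KD, in the same mice.

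Gp6 (chr7:4363965-4397744, minus strand) encodes the collagen receptor GPVI and was the lowest of the list per kb, with a mean of 0.396 CPM per kb and 19 to 228 counts per library. It read 3.97 and 1.45 CPM in young KD, 5.24 and 0.579 CPM in young KO, 3.23 and 1.77 CPM in old KO and 1.60 and 0.846 CPM in sick KD. Its 9.05-fold span from the lowest to the highest library was the widest of the 9 genes, with a 95% interval of 5.67 to 15.3 that covers counting error only. Treml1 (chr17:48359916-48367176) encodes TLT-1, a receptor kept in α-granules until platelets are activated. It read 12.9 and 4.46 CPM in young KD, 13.3 and 2.53 CPM in young KO, 8.05 and 5.19 CPM in old KO and 4.67 and 2.18 CPM in sick KD. The 2 sick KD mice thus lay below the 2 old KO mice for Gp6 and Treml1, as they did for Gp9. Of all genes, 65.9% had no overlap between old KO and sick KD. Gp6 and Treml1 both overlapped between sick and young KD.

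Vwf (chr6:125546774-125686679, 56 exon blocks) encodes von Willebrand factor, which is made by megakaryocytes and by endothelial cells. It read 72.7 and 26.8 CPM in young KD, 76.4 and 18.0 CPM in young KO, 66.4 and 38.1 CPM in old KO and 47.6 and 21.4 CPM in sick KD. Its values followed those of the other 8 genes over a 4.25-fold span. The 13 endothelial markers summed to 119 to 172 CPM, with 134 CPM in the young KO mouse of 44 days and 172 CPM in that of 48 days, a smaller step than that of Vwf in the same pair. Their part in the Vwf counts was not tested.

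Within each pair of mice, all 9 genes differed in the same direction. In young KO the 48-day mouse stood 3.38- to 9.05-fold above the 44-day mouse, with a median of 5.27-fold, and in young KD the 42-day mouse stood 2.37- to 3.73-fold above the 39-day mouse, with a median of 2.82-fold. All 9 genes exceeded a ratio of 2 in both young pairs, where 3.06% and 2.75% of all genes did so in that direction. In sick KD the 187-day mouse was 1.73- to 2.62-fold higher, and 4 of 9 genes (Ppbp, Gp5, Vwf and Treml1) exceeded 2, against 3.39% of all genes. In old KO the 158-day mouse was 1.47- to 1.82-fold higher, and 0 of 9 exceeded 2, against 3.86% of all genes. These are ratios of 1 library to 1 and carry no test over mice. The direction they are counted in is the one the 9 genes themselves gave, and the genes are not independent of each other.

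**Figure D2:**
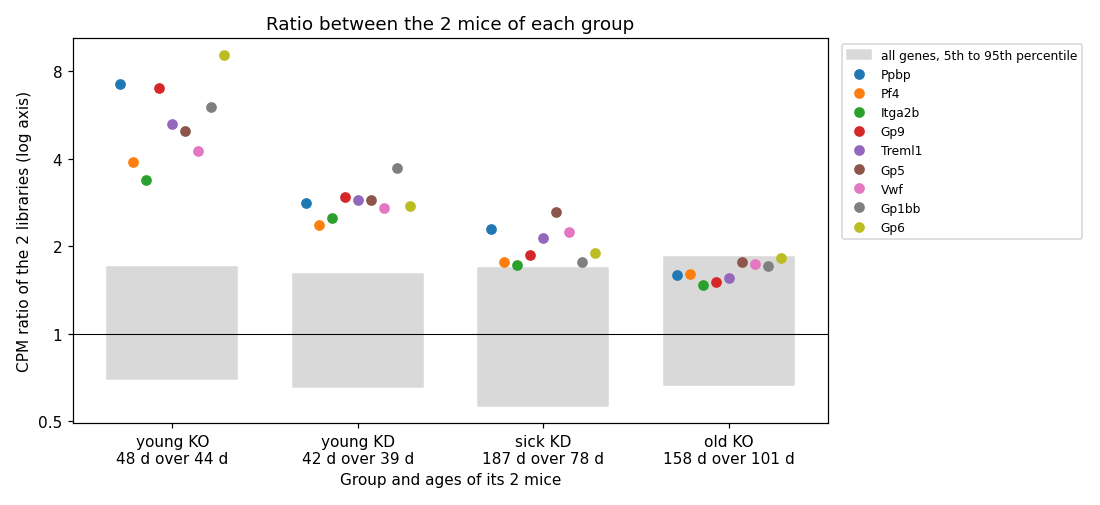
CPM ratio of the 2 mice of each group (log axis, the mouse with the higher levels over the other) for each of the 9 genes as points, with the range from the 5th to the 95th percentile of all genes in grey. All 9 points are above the grey range in young KO, young KD and sick KD, and all 9 are within it in old KO.

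Erythroid markers ran the other way in the young pairs. The 14 markers found, hemoglobin and other red cell genes, summed to 2367 CPM in the young KO mouse of 48 days and 5160 CPM in that of 44 days, and to 2521 CPM in the young KD mouse of 42 days and 6047 CPM in that of 39 days. In old KO they moved with the 9 genes, at 6839 and 4380 CPM in the mice of 158 and 101 days, and in sick KD they were low in both mice, at 1108 and 1545 CPM. Stromal markers, 10 genes, summed to 214 and 106 CPM in young KO of 48 and 44 days and to 212 and 171 CPM in young KD of 42 and 39 days, so they were higher in the same mice as the 9 genes, and to only 25.9 and 24.2 CPM in sick KD. The part of erythroid or stromal cells in the results was not tested.

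No group comparison of the 9 genes passed the threshold. Young KO differed from young KD by a median log2 fold change of -0.08 over the 9 genes, with single values from -0.26 (Gp1bb) to 0.12 (Gp6), and 0 of 9 passed, where 0.0404% of all genes did (edgeR, adjusted p = 0.99999 for every gene). The 95% intervals were wide: that of Ppbp ran from -2.21 to 2.01 on the log2 scale, and that of Itga2b from -1.48 to 1.54. Values of the 2 young groups overlapped for all 9 genes, while 27.2% of all genes did not overlap. Levels in young KO and KD marrow are thus not shown to be alike, since differences of over 2-fold in either direction lie inside these intervals. Which mouse is left out decides the direction: without the 48-day young KO mouse the median was -1.77, and over the 4 fits with a mouse left out it reached 0.84. Each of the 9 genes changed sign in 2 of these 4 fits.

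Old KO read higher than sick KD for 9 of 9 genes, at a median log2 fold change of 0.65, but 0 of 9 passed the test, against 18.1% of all genes. The largest differences were Gp6 at 1.02 (SE 0.44), Treml1 at 0.94 (SE 0.40) and Gp5 at 0.90 (SE 0.47), and the smallest was Itga2b at 0.28 (SE 0.28). The lowest adjusted p was 0.145, for Treml1, and 0 of 9 had an unadjusted p under 0.05. DESeq2 also called 0. With each mouse left out in turn the median ran from 0.27 to 1.31. Gp9, Gp6 and Treml1, 3 of 9, had no overlap between the 2 groups, against 65.9% of all genes, so this count is not above that of the whole table. Leaving out the 187-day sick KD mouse gave Ppbp a log2 fold change of 1.37. Without the 101-day old KO mouse Pf4 was at 0.93 and Gp6 at 1.39.

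Sick KD read lower than young KD for 9 of 9 genes, at a median of -0.92, and 0 of 9 passed edgeR's test, against 20.9% of all genes, with 0 at an unadjusted p under 0.05. Treml1 was at -1.33 (SE 0.56, adjusted p = 0.137), Gp6 at -1.14 (SE 0.55), Ppbp at -1.10 (SE 0.54) and Pf4 at -0.97 (SE 0.44), whereas Itga2b was at -0.12 (SE 0.44). DESeq2 called Treml1 alone (adjusted p = 0.0476). All 9 genes overlapped between the groups, against 66.5% of all genes without overlap. Without the 39-day young KD mouse the median was -1.49, and without the 42-day young KD mouse it was 0.03. The 2 comparisons that hold the sick KD mice share those libraries and are not independent of each other. The paper reports higher platelet numbers in the blood of sick KD mice than in KO mice and controls. It also reports more megakaryocytes on marrow cytospins of KD mice. For both KD and KO mice it describes a tendency toward higher numbers of megakaryocyte and erythroid progenitors. Those are observations on cells, and their relation to the RNA levels here was not tested.

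Old KO differed from young KO by a median log2 fold change of -0.06, with 4 genes above 0 and 5 below, and 0 of 9 passed (edgeR, lowest adjusted p = 0.959, 0 at an unadjusted p under 0.05, DESeq2 0), against 0.929% of all genes. All 9 overlapped, against 37.4% of all genes without overlap, and the median was 1.60 without the 48-day young KO mouse. The difference of differences, (old KO minus sick KD) minus (young KO minus young KD), had a median of 0.85, and 0 of 9 passed by edgeR or DESeq2, with 0 at an unadjusted p under 0.05 by edgeR, against 7.43% of all genes. For all 9 genes its interval was wider than in any of the 4 comparisons between pairs of groups, and that of Treml1 ran from -1.40 to 3.52.

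**Figure D3:**
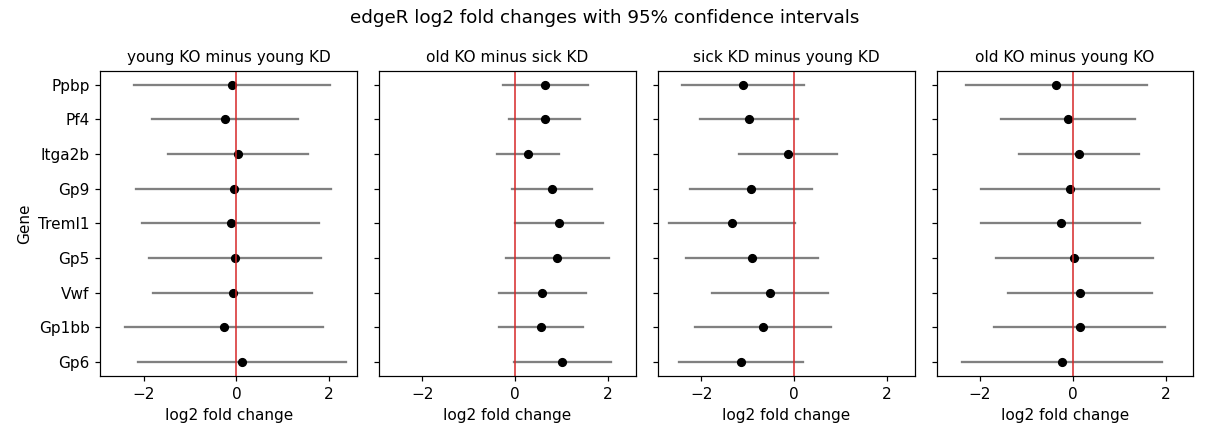
log2 fold change of each of the 9 genes in the 4 comparisons between groups (points), with the 95% confidence interval of the edgeR fit (lines). All intervals include 0, the 9 points lie above 0 for old KO minus sick KD and below 0 for sick KD minus young KD.

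Itga2b differed least between sick KD and the groups it was compared with, a pattern picked out after the values were seen and given with no test. The ratio of Itga2b to Pf4 counts was 4.10 and 4.20 in sick KD, 3.12 and 3.41 in old KO, 2.70 and 3.10 in young KO and 2.22 and 2.34 in young KD. Against Itgb3, which encodes its partner integrin β3, the ratio was 0.945 and 0.872 in sick KD and 0.575 to 0.756 in the other 6 mice. So the 2 sick mice had the highest ratio of Itga2b to either gene, and young KD mice the lowest ratio to Pf4. Against the mean log2 CPM of the other 8 genes, Itga2b stood at 2.95 and 3.20 in sick KD. The 44-day young KO mouse lay between them at 2.98, so this measure did not set the sick mice apart. By the same measure Treml1 was lowest in the 2 sick mice (-1.36 and -1.46, others from -1.17 up). Gp1bb was highest in them (-1.70 and -1.49, others up to -1.72). Removing the trend with GC content and transcript length turned the sign of the Itga2b change between old KO and sick KD to -0.03 and that between sick and young KD to 0.17. Stem and progenitor markers, 10 genes, summed to 248 and 287 CPM in sick KD and 201 to 328 CPM in the other mice, and mast cell, eosinophil and basophil markers to 492 and 555 CPM in sick KD and 618 to 1506 CPM elsewhere. Their part in the Itga2b counts was not tested.

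**Figure D4:**
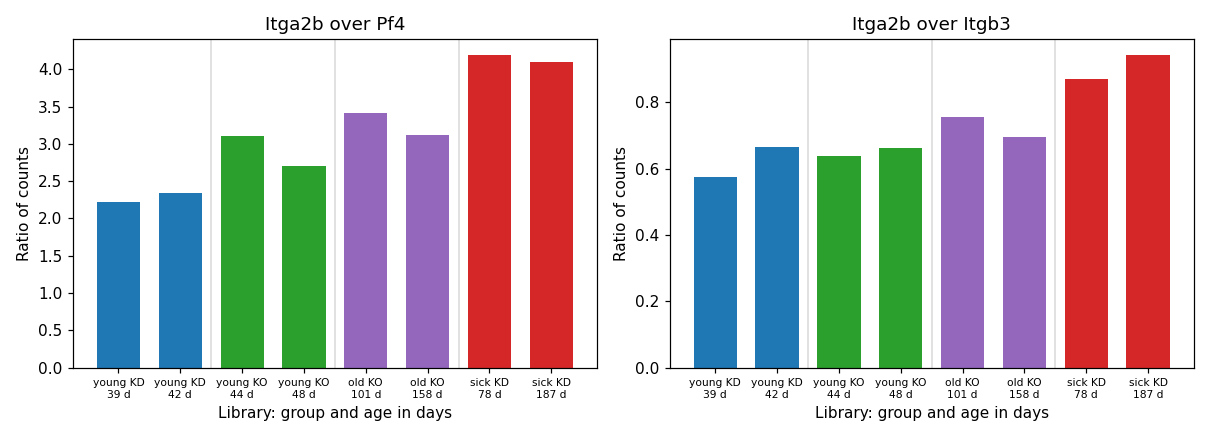
Counts of Itga2b over those of Pf4 (left) and of Itgb3 (right) in each of the 8 libraries, coloured by group. The 2 sick KD libraries have the highest bars in both panels, at 4.10 and 4.20 for Pf4 and 0.945 and 0.872 for Itgb3.

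Of the 10 protein-coding genes whose levels were most like those of the 9, 6 were on the other lists of platelet genes (Cavin2, Itgb3, Tubb1, Clu, Alox12 and Ltbp1). Likeness was the Pearson correlation, over 8 libraries that share the 2 young pairs as their widest steps, with the mean standardised log2(CPM + 1) of the list. Cavin2 (0.998), Itgb3 (0.995), Tubb1 (0.994), Clu (0.992) and Slc6a4 (0.992) came first, followed by Myom1, Fhl1, Alox12, Ly6g6f and Ltbp1 (0.992 to 0.983). Tubb1 encodes the β1-tubulin of the platelet's marginal band, Slc6a4 the serotonin transporter and Alox12 the platelet 12-lipoxygenase. Tubb1 read 38.6 and 5.54 CPM in the young KO mice of 48 and 44 days, and Itgb3 read 138 and 42.3 CPM in the same mice. A correlation of 0.9 or more was reached by 0.653% of 11481 other protein-coding genes with a mean of at least 1 CPM.

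In the larger of 7 lists, which hold 103 other genes of megakaryocytes and platelets in all, correlations of 0.9 or more with the 9 genes were reached by 10 of 20 receptors, 4 of 13 cytoskeletal genes, 7 of 24 signalling genes, 2 of 14 granule contents, 1 of 10 genes of granule making and 0 of 15 transcription factors. The median correlation was 0.90 for the receptors and 0.10 for the transcription factors. Thpo, which encodes thrombopoietin and is known to be made mostly in the liver, had 0 counts in all 8 libraries, which allows up to 0.0689 to 0.120 CPM per library (3 counts).

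Gata1, Gfi1b, Zfpm1, Tal1 and Mafk, 5 of 15 transcription factors on the lists, fell from young to sick KD, against 11.4% of all genes lower. The other 10 did not pass edgeR's test in this comparison. Of the 15, 7 had an unadjusted p under 0.05 by edgeR, and DESeq2 called 7 in either direction. Gata1, the GATA factor both lineages need, read 29.7 and 18.1 CPM in young KD (39 and 42 days), 20.3 and 19.8 CPM in young KO (44 and 48 days), 21.7 and 35.2 CPM in old KO (101 and 158 days) and 6.27 and 8.39 CPM in sick KD (78 and 187 days). Gfi1b, a paralog of Gfi1 needed for both lineages, read 18.5 and 12.6 CPM, 14.2 and 13.6 CPM, 12.4 and 22.2 CPM, and 4.62 and 5.83 CPM in the same mice. Both were lowest in the 2 sick mice with no overlap with any other group, and neither followed the steps of the 9 genes in the young pairs. Against young KD the sick mice had log2 fold changes of -1.70 (SE 0.27) for Gata1, -1.57 (SE 0.24) for Gfi1b and -1.73 (SE 0.19) for Zfpm1, the Gata1 cofactor FOG1 (edgeR adjusted p = 0.0124, 0.0116 and 0.00563). Old KO stood above sick KD by 1.94 (SE 0.28) for Gata1, 1.71 (SE 0.31) for Gfi1b and 1.76 (SE 0.25) for Tal1 (adjusted p = 0.00763, 0.0149 and 0.00753). The erythroid sums given above, 1108 and 1545 CPM in sick KD and 2367 to 6839 CPM in the other mice, fell in the same mice. All 14 erythroid markers tested passed as lower in sick than in young KD (edgeR), against 11.4% of all genes.

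**Figure D5:**
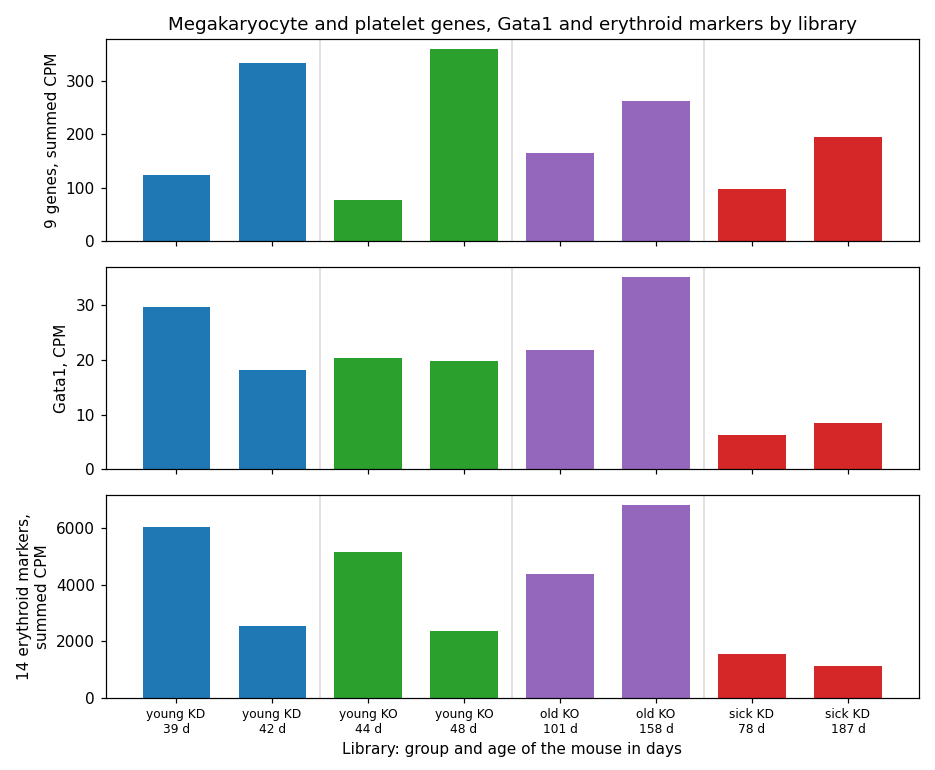
Summed CPM of the 9 genes (top), CPM of Gata1 (middle) and summed CPM of 14 erythroid markers (bottom) in the 8 libraries, coloured by group. Gata1 and the erythroid markers are lowest in the 2 sick KD libraries (6.27 and 8.39 CPM, 1545 and 1108 CPM), while the 9 genes have their lowest sum in the 44-day young KO library (77.7 CPM).

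Counted over the 7 lists, 101 of 103 genes were tested in each comparison. Old KO was higher than sick KD for 11 genes and lower for 4, against 9.93% of all genes higher and 8.22% lower, with a median log2 fold change of 0.19 against -0.005 for all genes. By role, 6 of 15 transcription factors were higher and 1 lower, 1 of 19 receptors (Cd36) was higher, 2 of 14 granule contents were higher and 2 lower, 1 of 13 cytoskeletal genes was higher, 1 of 24 signalling genes was higher and 1 lower, and 0 of 10 genes of granule making and 0 of 6 of thrombopoietin signalling passed (edgeR), where 3 and 2 had an unadjusted p under 0.05 and DESeq2 called 1 and 0. The 6 higher factors were Gata1, Tal1, Gfi1b, Zfpm1, Mafk and Srf. Srgn, the granule proteoglycan serglycin, was lower in old KO at a log2 fold change of -0.76 (SE 0.16, adjusted p = 0.0223). Fcer1g, the chain that signals for GPVI and for Fc receptors, was at -0.61 (SE 0.17, adjusted p = 0.0451), and Runx1, a factor of megakaryocytes and of stem cells, at -0.50 (SE 0.11, adjusted p = 0.0259). Without the 158-day old KO mouse the calls of all 3 were lost (adjusted p = 0.152, 0.249 and 0.162). The call of Srgn was also lost without the 187-day sick KD mouse (0.0557), that of Fcer1g without the 78-day sick KD mouse (0.0940) or the 101-day old KO mouse (0.0602), and that of Runx1 without the 187-day sick KD mouse (0.0507) or the 101-day old KO mouse (0.141). Srgn, Fcer1g and Runx1 are also expressed by myeloid cells, and monocyte markers summed to 12151 and 13356 CPM in sick KD and 7780 to 10447 CPM in the other 6 mice. The part of myeloid cells in the levels of these genes was not tested.

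Sick KD was higher than young KD for 8 list genes and lower for 11, against 9.45% and 11.4% of all genes, with a median of -0.19 against 0.01. By role, 5 of 15 transcription factors and 2 of 19 receptors (Tbxa2r and Cd36) were lower, 3 of 14 granule contents were higher and 2 lower, 2 of 10 genes of granule making (Nbeal2 and Rab38) were higher, 1 of 13 cytoskeletal genes was higher and 1 lower, 2 of 24 signalling genes were higher and 1 lower, and 0 of 6 genes of thrombopoietin signalling passed (edgeR, 0 at an unadjusted p under 0.05, DESeq2 0). Selp, which encodes the α-granule adhesion receptor P-selectin and is also made by endothelial cells, rose in sick KD, from 8.05 and 12.8 CPM in young KD (39 and 42 days) to 42.1 and 36.9 CPM in sick KD (78 and 187 days), a log2 fold change of 1.93 (SE 0.23, adjusted p = 0.00608). It did not follow the 9 genes (correlation -0.06). Selp was also the 1 list gene called between old and young KO, from 16.9 and 19.6 CPM in the young mice of 44 and 48 days to 32.7 and 35.5 CPM in the old mice of 101 and 158 days (log2 fold change 0.90, SE 0.11, adjusted p = 0.0355), a call lost in the fit of all 8 libraries and in 3 of 4 fits with a mouse left out. Sparc, an α-granule protein that stromal cells also make, fell by 2.24 (SE 0.20, adjusted p = 0.00379), from 22.4 and 18.4 CPM in young KD to 4.79 and 3.75 CPM. Srgn rose by 0.68 (SE 0.11, adjusted p = 0.0116) and Fcer1g by 0.63 (SE 0.14, adjusted p = 0.0260), and both calls were lost without the 39-day young KD mouse (adjusted p = 0.0985 and 0.159) or the 42-day young KD mouse (0.0906 and 0.0954). Over the lists, leaving out the 39-day mouse gave 1 higher and 20 lower, and leaving out the 42-day mouse gave 4 higher and 10 lower. In the young comparison 0 of 101 passed edgeR's test, 2 had an unadjusted p under 0.05, and DESeq2 also called 0.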

How the data were processed

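Counts of 8 BM libraries were used, grouped by the sample labels. The authors prepared TruSeq Stranded mRNA libraries, aligned reads to mm10 with TopHat2 2.0.10, counted them on Ensembl genes with HTSeq and deposited raw counts per gene for each mouse, with no normalization. The Ensembl release and the strand setting of the counting are not given in the sources used here. HTSeq's tallies of unassigned reads (27.4% to 42.5% of reads outside genes or ambiguous) were left out of library sizes. They were highest in sick KD, at 42.5% (187 days) and 39.3% (78 days), against 27.4% to 34.3% in the other libraries. The TMM factors were lowest there, at 0.940 and 0.942, against 0.990 to 1.04 elsewhere. The part of this difference in the sick KD comparisons was not tested. Symbols, exons and positions came from GENCODE M21, and 40340 of 41214 identifiers had a symbol.

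CPM were scaled by TMM, and CPM per kb was divided by the union of annotated exons. Each comparison was fitted on its own 4 libraries with edgeR 4.0.16 (R 4.3.3, filterByExpr, quasi-likelihood test, Benjamini-Hochberg adjustment), and the difference of differences on all 8. An SE is the absolute log2 fold change over the square root of F. DESeq2 1.42.0 and the other settings below were alternatives. The edgeR p-values set a difference against the spread between these mice, and the spread of each gene is drawn toward that of other genes. Replicates were checked, and no library was a copy of another. The fits were tested on simulated data in which all genes had the same small spread between replicates. The 9 genes varied more between mice, so that check does not show how the fits perform at their spread. The members and the lists were chosen with earlier results of these data known. Besides the 9 genes, the text names Thpo, Gp1ba, Itgb3, Gata1 and Gfi1b (1 further gene of this rule is not reported here), up to 3 list genes in each direction and comparison among those past the threshold without overlap, and the 10 genes most alike. Other genes that make up a count, and Sept5, are named beside them. The Itga2b ratios were chosen after the values were seen.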

Additional observations from a re-analysis of the deposited data

Results flagged for a closer look

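The difference between old KO and sick KD differed from that between young KO and young KD for 8 of 101 genes tested from the wider lists, by the test of the difference of differences in edgeR (all 8 mice). Of all genes tested 7.43% passed, so the count on the lists was near the share of the whole table. The log2 values were 2.20 (SE 0.41, adjusted p = 0.0252) for Gata1, 1.88 (SE 0.41, adjusted p = 0.0375) for Gfi1b, 1.86 (SE 0.42, adjusted p = 0.0412) for Tal1, 1.77 (SE 0.32, adjusted p = 0.0232) for Zfpm1, 1.66 (SE 0.34, adjusted p = 0.0329) for Sparc and 1.23 (SE 0.24, adjusted p = 0.0297) for Mafk. They were -0.79 (SE 0.17, adjusted p = 0.0344) for Srgn and -0.61 (SE 0.15, adjusted p = 0.0459) for Tuba4a, which encodes an α-tubulin. Leaving out single mice kept the sign of all 8, with ranges in this order of 1.81 to 2.51, 1.40 to 2.24, 1.41 to 2.20, 1.48 to 2.01, 1.35 to 2.05, 1.04 to 1.41, -0.98 to -0.63 and -0.72 to -0.51. Each of the 8 lost its call in at least 5 of these 8 fits. None of the 9 megakaryocyte and platelet genes passed this test with the filter on low counts.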

How the results depend on the processing

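All 9 genes had 0 calls in each comparison under RLE normalization, the stricter count filter, all 8 libraries in a single fit (for the comparisons between groups), library sizes without the 50 genes with most counts or without mitochondrial, small RNA and histone genes, and the removed GC and length trend. Without a filter on low counts edgeR called 7 of 9 between old KO and sick KD, 6 between sick and young KD and 5 in the difference of differences. Of all genes tested, these fits called 4325 of 21700, 4402 of 21807 and 2919 of 23025. The prior degrees of freedom of the fit then rose from 4.93 to infinity, from 4.42 to 42.8 and from 4.20 to 32128. The spread of each gene thus counted for less. DESeq2 called 1 between sick and young KD. With each mouse left out in turn, the median log2 fold change ranged from -1.77 to 0.84 between the young groups. It ranged from 0.27 to 1.31 between old KO and sick KD and from -1.49 to 0.03 between sick and young KD. The range was -0.75 to 1.60 between old and young KO and -0.13 to 2.62 in the difference of differences. With 1 mouse left in a group, that mouse is assumed to vary like the others.

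Single genes that changed sign with a mouse left out ranged as follows on the log2 scale. Young KO minus young KD: Ppbp -2.12 to 0.84, Pf4 -1.52 to 0.52, Itga2b -1.09 to 0.84, Gp1bb -2.07 to 0.97, Gp9 -2.05 to 0.92, Gp5 -1.61 to 0.92, Gp6 -2.21 to 1.02, Vwf -1.47 to 0.81, Treml1 -1.77 to 0.83. Old KO minus sick KD: Itga2b -0.071 to 0.72. Sick KD minus young KD: Itga2b -0.65 to 0.67, Gp1bb -1.34 to 0.55, Gp9 -1.51 to 0.044, Gp5 -1.76 to 0.029, Vwf -1.21 to 0.36. Old KO minus young KO: Ppbp -1.16 to 1.66, Pf4 -0.75 to 1.18, Itga2b -0.49 to 1.24, Gp1bb -0.61 to 1.94, Gp9 -0.85 to 1.92, Gp5 -0.69 to 1.60, Gp6 -1.06 to 2.09, Vwf -0.53 to 1.53, Treml1 -0.996 to 1.37. Difference of differences: Ppbp -0.19 to 2.77, Itga2b -0.57 to 1.37, Gp1bb -0.43 to 2.62, Gp9 -0.13 to 2.84, Gp5 -0.019 to 2.51, Gp6 -0.00061 to 3.23, Vwf -0.23 to 2.05. The GC and length trend, once removed, gave Itga2b -0.032 between old KO and sick KD, 0.17 between sick and young KD and -0.050 in the difference of differences. The cause was not tested.

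Counts over all genes moved by over 1.5 times as follows. The 6 calls between the young groups became 27 with DESeq2, 119 without a filter and 3 with all 8 libraries. The 2626 between old KO and sick KD became 4325 without a filter and 4200 with all 8 libraries. The 3063 between sick and young KD became 4796 with the trend removed, the 138 between old and young KO became 383 with DESeq2 and 796 without a filter, and the 1122 in the difference of differences became 1951, 2919 and 2100 with DESeq2, without a filter and with the trend removed. Without the 48-day young KO mouse the calls between the young groups fell to 2, and those between old KO and sick KD fell to 1221 without the 187-day sick KD mouse and 1725 without the 158-day old KO mouse. Those between sick and young KD fell to 1316 without the 39-day young KD mouse. Between old and young KO they were 87, 307, 79 and 17 without the mice of 158, 101, 48 and 44 days. In the difference of differences they ranged from 106, without the 39-day young KD mouse, to 1614, and fell by over 1.5 times without each mouse but the 78-day sick KD mouse. For the 7 lists, calls between old KO and sick KD (11 higher, 4 lower) became 31 and 9 without a filter, 17 and 8 with all 8 libraries, and 7 lower with DESeq2 and 12 lower with the trend removed. Those between sick and young KD (8 higher, 11 lower) became 13 and 23 without a filter, and 16 higher with the trend removed. With each mouse left out, calls on the lists ranged from 9 to 16 higher and 0 to 5 lower between old KO and sick KD (0 lower without the 158-day old KO mouse), from 1 to 9 higher and 10 to 20 lower between sick and young KD, and from 0 to 6 higher and 0 to 2 lower in the difference of differences. Scaling by library size alone moved none of the 72 CPM values of the 9 genes by more than the SD of its group. Counts were lowest for Gp6 and Gp1bb, at 19 and 37 in the 44-day young KO mouse, and their young KO ratios of 9.05 and 6.02 had counting intervals of 5.67 to 15.3 and 4.26 to 8.71. No paired analysis was possible because the labels give the groups no shared replicate numbers.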
